A study of Mus musculus with 8 samples.

Results

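The mouse mitochondrial chromosome encodes 37 genes, of which 13 give mRNAs, 2 give rRNAs and 22 give tRNAs. All 37 were found among the 55487 genes of the count table by their position on the mitochondrial chromosome, without use of their counts. They were followed in muscle stem cells (MuSCs) from aged male mice that were sorted by FACS as CD31-, CD11b-, CD45-, Sca1-, CD34+ and Integrin α7+ cells and then grown for 72 hours, the full 3 days of culture, in growth medium. The cells received either the combination of nicotinamide and pyridoxine (NAM/PN), given in the labels as 1 mM of the combination, or the vehicle, 1% DMSO. The 8 mice were combined into 4 pools of 2 mice, and cells of each pool received both treatments, so that 4 vehicle and 4 NAM/PN libraries were compared and libraries with the same pool number share their mice. All libraries come from old animals and from cells that had left their niche, and the labels give the age only as old.

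Each mitochondrion holds its own small circular genome, which is transcribed from both strands as long precursors by the polymerase Polrmt with the factors Tfam and Tfb2m. The precursors are cut at the tRNAs that lie between the other genes, which releases the mRNAs and the 12S and 16S rRNAs (mt-Rnr1 and mt-Rnr2) of the mitochondrial ribosome. The mRNAs encode core subunits of respiratory complexes I, III and IV and of the ATP synthase (complex V), which assemble with many subunits made from nuclear genes, and MuSCs raise their mitochondrial activity as they leave quiescence, divide and differentiate.

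Counts were distributed unevenly over the 37 genes. In the 8 libraries together, 21 of the genes had at least 1 count and 16 had 0 counts in every library. The genes at 0 were 6 mRNAs and 10 tRNAs. The 6 mRNAs were mt-Co2 and mt-Co3 (complex IV), mt-Atp6 and mt-Atp8 (ATP synthase), and mt-Nd3 and mt-Nd4l (complex I). Libraries held between 6472484 and 10163101 counts, so that 3 counts, taken as the limit that a count of 0 allows, correspond to between 0.295 and 0.464 CPM (counts scaled to a library total of 1e+06) of a library, for counting error only. Other genes of the same chromosome were among the most abundant RNAs of the table. By mean CPM, mt-Rnr2 ranked 2nd of all tested genes, mt-Nd4 3rd, mt-Nd1 6th, mt-Cytb 9th, mt-Rnr1 10th and mt-Nd2 13th, whereas mt-Nd5 ranked 153rd, mt-Co1 268th and mt-Nd6 5036th.

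**Figure D1:**
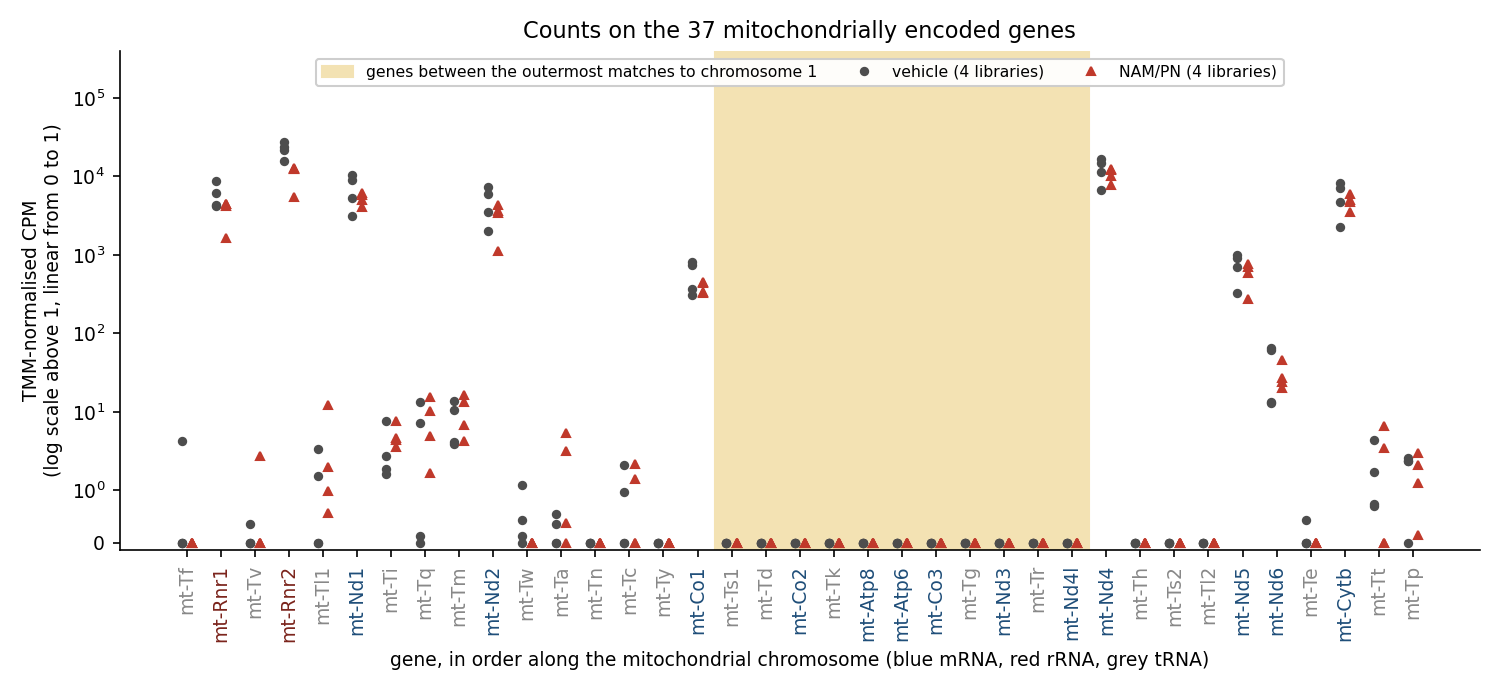
TMM-normalised CPM of the 37 mitochondrially encoded genes in order along the chromosome (vertical axis on a log scale above 1 and linear from 0 to 1), with 1 point for each of the 4 vehicle and 4 NAM/PN libraries. The shaded stretch holds the 11 genes that lie between the outermost matches to genes annotated on chromosome 1, and all 11 had 0 counts in all 8 libraries.

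The 6 mRNA genes at 0 lie next to each other. In the GENCODE M21 annotation of GRCm38, the build used by the authors, 7 genes annotated on chromosome 1 between positions 24611535 and 24616197, on the minus strand, match parts of a stretch of 4653 bases of the mitochondrial chromosome (chrM:6390-11042). Of these bases, 4136 were aligned to 1 of the 7 copies and 517 were not. Of the mitochondrial genes, 11 lie wholly inside this stretch, 6 mRNAs and 5 tRNAs, and all 11 had 0 counts. Of the 26 genes outside or partly outside it, 5 had 0 counts, and these 5 were tRNAs (of 17 tRNAs outside). Of the 6 mRNAs inside, 5 were aligned over nearly their whole length, and the copies of mt-Co2, mt-Atp6, mt-Co3 and mt-Nd4l were identical to them over all aligned bases. The exception was mt-Atp8, of whose 204 bases 43 were aligned, where it overlaps mt-Atp6. Its closest copy along more of its length was Gm28925, elsewhere on chromosome 1, at 81.4% identity. Of the 5 tRNAs inside, 1 was aligned, and only in part: mt-Ts1 (chrM:6870-6938), up to chrM:6872 where it overlaps mt-Co1. Sequence between the annotated copies was not searched. The first 60 bases of mt-Nd3 (chrM:9459-9518, plus strand) and of its chromosome 1 copy Gm28438 (chr1:24613060-24613119, minus strand), and the last aligned 60 bases of mt-Co2 (chrM:7634-7693, plus strand) and of its copy Gm28661 (chr1:24614885-24614944, minus strand), show how close the copies are. The capital marks the single difference between mt-Nd3 and Gm28438 in 345 aligned bases, T3C, counted from 1 at the first base of mt-Nd3.
mt-Nd3: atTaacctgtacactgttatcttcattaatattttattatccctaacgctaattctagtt
Gm28438: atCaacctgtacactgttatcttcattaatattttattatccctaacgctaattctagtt
mt-Co2: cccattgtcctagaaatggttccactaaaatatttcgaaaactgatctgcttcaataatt
Gm28661: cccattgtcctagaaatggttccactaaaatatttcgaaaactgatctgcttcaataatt

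The copies on chromosome 1 held few counts. Of the 7 copies, 4 had 0 counts in all 8 libraries, and together they had 39 counts. Gm28438 had 34 of these, all in the vehicle library of pool 1, Gm29216 (copy of mt-Co1) had 4 and Gm28661 had 1. How reads that align to more than 1 place were treated is not given in the sources used here, so the 0 counts of the 6 mRNAs cannot be read as absence of the RNAs, and mt-Co2, mt-Co3, mt-Atp6, mt-Atp8, mt-Nd3 and mt-Nd4l were not compared between the treatments. The boundaries of the stretch ran through 2 genes with counts. The last 483 bases of mt-Co1, the largest complex IV subunit, lie inside it and matched Gm29216 at 99.8% identity, and mt-Co1 had 31622 counts in all. The first 876 bases of mt-Nd4, a complex I subunit, matched Gm28439 at 100% identity while its last 502 bases had no match there, and mt-Nd4 had 760464 counts in all. The positions of the reads within these genes are not in the counts.

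The mRNAs with counts that lie outside the stretch had annotated copies with more differences. The copy closest to mt-Cytb, the complex III subunit cytochrome b, was Gm11410 on chromosome 4 at 92.9% identity. That of mt-Nd2 was Gm13339 at 96.7%, that of mt-Nd5 was Gm4076 at 95.2% and that of mt-Nd6 was Gm11408 at 93.6%. For mt-Nd1 it was Gm48258 on chromosome 12, at 83.6% identity over 311 bases. Over all libraries these copies had 2, 1, 50, 0 and 266 counts, in this order. The closest copy of mt-Rnr2 was Gm20594 on chromosome 6, at 88.5% identity over 435 bases, and it had 0 counts. No annotated copy of at least 100 bases was found for mt-Rnr1. The last aligned 60 bases of mt-Cytb (chrM:15228-15287, plus strand) and Gm11410 (chr4:80005072-80005131, plus strand) are shown as an end with 5 differences, in capitals (T1095C, A1098G, C1099T, C1116T and C1129T, counted from the first base of mt-Cytb). The last 60 bases of the 3 RNAs with the results described next, mt-Rnr2 (chrM:2616-2675), mt-Rnr1 (chrM:965-1024) and mt-Nd4 (chrM:11485-11544), all on the plus strand, follow with runs of 4 or more A in capitals, since the kit primes on A. Over the whole genes the longest runs of A have 7, 5 and 7 bases, in this order, longer than any shown here. Where the kit primed is not in the counts, so counts give the primed part of an RNA.
mt-Cytb: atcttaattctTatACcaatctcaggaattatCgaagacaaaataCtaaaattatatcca
Gm11410: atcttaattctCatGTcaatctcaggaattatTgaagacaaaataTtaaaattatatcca
mt-Rnr2: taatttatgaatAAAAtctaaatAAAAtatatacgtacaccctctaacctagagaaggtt
mt-Rnr1: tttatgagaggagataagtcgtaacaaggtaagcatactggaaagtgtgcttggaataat
mt-Nd4: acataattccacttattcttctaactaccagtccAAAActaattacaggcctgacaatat

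Counts on the 16S rRNA mt-Rnr2 were lower with NAM/PN in aged MuSCs, and no other mitochondrially encoded gene passed the test. To compare the treatments, library sizes were adjusted with edgeR's TMM method, as they were for all CPM values given for genes from here on unless the library total is named, each gene was tested with edgeR's quasi-likelihood model, and p-values were adjusted for false discovery across all 12060 tested genes, with calls made at an adjusted p of 0.05. Of the 37 genes, 15 had enough counts to be tested, namely 7 mRNAs, 2 rRNAs and 6 tRNAs. Of these 15, 1 was called, which is 6.67%, against 1.28% of all tested genes called in either direction and 0.995% called lower. When pools entered the fit as a replicate block, mt-Rnr2 was again the only one called, against 1.29% of all genes in either direction and 1.02% lower. The count of 1 gene is too small to set the group apart from the background. Since RNA was measured in bulk, fewer cells of a kind and less RNA per cell cannot be told apart in any of these values.

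mt-Rnr2 (chrM:1094-2675), the RNA of the large subunit of the mitochondrial ribosome, had 23927, 15805, 21625 and 27692 CPM in the vehicle libraries of pools 1 to 4. With NAM/PN it had 12321, 12635, 12269 and 5413 CPM in the same order. The groups did not overlap, which held in the same direction for 4.42% of all tested genes, and the RNA was lower with NAM/PN within all 4 pools. The means were 22262 ± 4978 CPM (SD, n = 4) and 10659 ± 3501 CPM (SD, n = 4), a difference of -1.06 on the log2 scale (SE 0.21) with an adjusted p of 0.0112 from edgeR. In the blocked fit the difference was -1.10 (edgeR adjusted p of 0.0203). NAM/PN libraries of pools 1 to 3 lay close together, and that of pool 4 lay apart below them. Without the NAM/PN library of pool 4 the difference was -0.84 (edgeR adjusted p of 0.00286). The call was lost without the vehicle library of pool 4 (-0.95, edgeR adjusted p of 0.0767), without pool 1 (-1.11, adjusted p of 0.116), without pool 2 (-1.29, adjusted p of 0.0592) and in a robust fit of all 8 libraries (-1.06, adjusted p of 0.0920).

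mt-Rnr1 (chrM:70-1024), the RNA of the small ribosomal subunit, is transcribed just ahead of mt-Rnr2 from the same strand. It had 6181, 4243, 4353 and 8731 CPM with vehicle and 4205, 4459, 4413 and 1648 CPM with NAM/PN, in the order of the pools. The groups overlapped, since 2 vehicle libraries lay at the level of 3 NAM/PN libraries, and the RNA was lower with NAM/PN in 2 of 4 pools. The difference was -0.68 on the log2 scale (SE 0.26) and did not pass the test (edgeR p of 0.0167, adjusted p of 0.336). Without the NAM/PN library of pool 4 it was -0.43, and without both libraries of pool 4 it was -0.18 (edgeR adjusted p of 0.878).

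All 7 tested mRNAs had negative differences and 0 passed the test, with edgeR adjusted p-values between 0.534 and 0.926. At an unadjusted p of 0.05 there was 1, and DESeq2 and voomWithQualityWeights also called 0. Each was lower with NAM/PN in pools 1 and 4 and higher in pools 2 and 3, so that the 4 pools were split evenly for every mRNA. The median difference of the 7 mRNAs was -0.39 on the log2 scale (-0.27 with the replicate block), beside -0.0022 over all tested genes. The mRNAs are cut from shared precursors, so their differences are not independent of each other.

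Of complex I, which takes electrons from NADH, 5 mRNAs were tested. mt-Nd4 had 16602, 11374, 6677 and 14997 CPM with vehicle and 10097, 12440, 12053 and 7785 CPM with NAM/PN, a difference of -0.23 (SE 0.21). mt-Nd1 had 10388, 5263, 3141 and 9032 CPM with vehicle and 5062, 5836, 6189 and 4124 CPM with NAM/PN, a difference of -0.39 (SE 0.25). In both genes the vehicle libraries held the highest and the lowest of the 8 values, and the NAM/PN values lay between them. mt-Nd2 had 6029, 3484, 2035 and 7310 CPM with vehicle and 3407, 3625, 4276 and 1106 CPM with NAM/PN, a difference of -0.60 (SE 0.34), and its lowest value was the NAM/PN library of pool 4. mt-Nd5 ranged from 323 to 1006 CPM with vehicle and from 273 to 762 CPM with NAM/PN, a difference of -0.34 (SE 0.30). mt-Nd6, which lies on the minus strand and is the only mRNA there, ranged from 12.9 to 65.5 CPM with vehicle and from 19.9 to 45.4 CPM with NAM/PN, a difference of -0.39 (SE 0.47).

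Complexes III and IV were each represented by a single tested mRNA. mt-Cytb, the only complex III subunit encoded in the mitochondrion, had 8237, 4723, 2266 and 7042 CPM with vehicle and 4663, 4988, 6053 and 3526 CPM with NAM/PN, a difference of -0.21 (SE 0.26). mt-Co1, which holds the oxygen-reducing centre of complex IV, had 739, 371, 304 and 816 CPM with vehicle and 326, 434, 450 and 335 CPM with NAM/PN, a difference of -0.53 (SE 0.25). It had the smallest p-value among the mRNAs, an unadjusted edgeR p of 0.0490. At an unadjusted p of 0.05, 3 of the 15 tested genes were lower (mt-Rnr2, mt-Rnr1 and mt-Co1), where 5.32% of all tested genes were. The direction of mt-Nd5, mt-Nd6 and mt-Cytb turned positive when a whole pool was left out, up to 0.09, 0.07 and 0.05 on the log2 scale, and that of mt-Cytb also without the vehicle library of pool 1 (0.029). The other mRNAs came close to 0 in such fits. Without pool 4, mt-Nd4 differed by -0.0035 and mt-Nd2 by -0.031, and without pool 1, mt-Nd4 differed by -0.038 and mt-Nd1 by -0.12. Single libraries also moved them. Without the vehicle library of pool 1, mt-Nd1 differed by -0.14 and mt-Nd4 by -0.067, and without the vehicle library of pool 4, mt-Nd2 differed by -0.32 and mt-Co1 by -0.30. Without the NAM/PN library of pool 4, mt-Nd2 differed by -0.32 and mt-Nd4 by -0.11. Without the vehicle library of pool 3, mt-Nd1 differed by -0.64 and mt-Nd4 by -0.44.

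**Figure D2:**
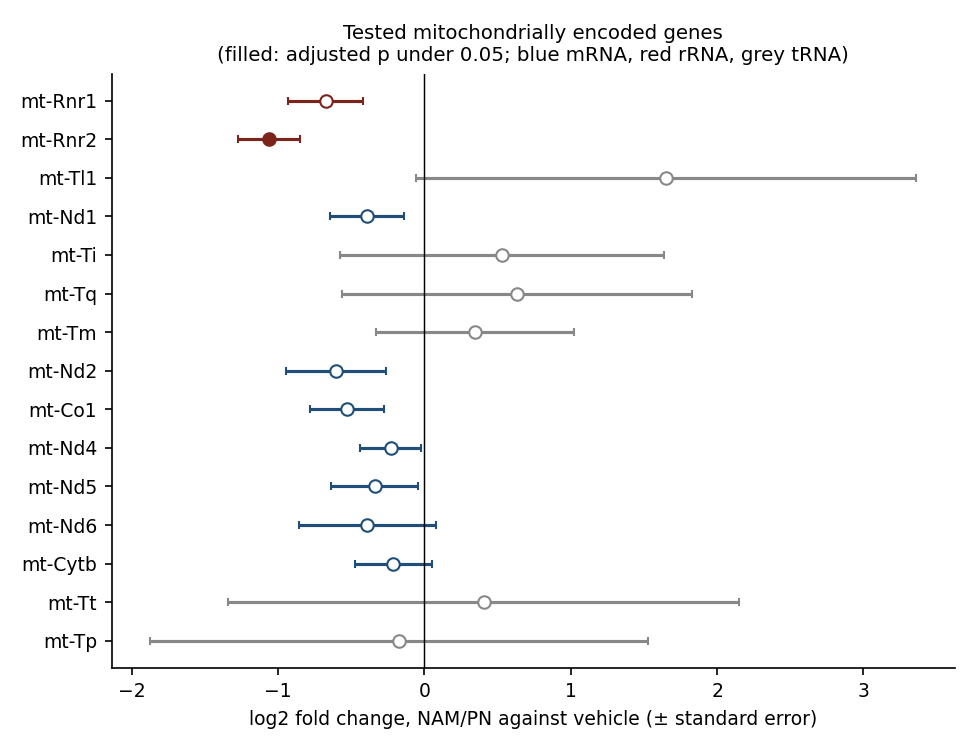
Log2 fold change of NAM/PN against vehicle (points) with its standard error (bars) for the 15 tested mitochondrially encoded genes, in chromosome order, from 4 libraries per treatment. Only mt-Rnr2, at -1.06, is filled as passing the test, the 7 mRNAs lie between -0.60 and -0.21, and the bars of the tRNAs are wide.

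The tRNAs had few counts. Of 22 tRNAs, 12 had at least 1 count and 6 were tested, and no tRNA exceeded 16.5 CPM in any library. tRNAs carry amino acids to the mitochondrial ribosome and have no long A tail, and counts on them cannot be told apart from counts on uncut precursors. The tRNA for methionine, mt-Tm, had the most counts, with a range from 3.94 to 13.7 CPM with vehicle and from 4.28 to 16.5 CPM with NAM/PN, a difference of 0.35 (SE 0.68). mt-Tq (glutamine) ranged from 0 to 13.2 CPM and from 1.67 to 15.4 CPM, and mt-Ti (isoleucine) from 1.61 to 7.75 CPM and from 3.54 to 7.60 CPM. For mt-Tl1 (leucine) a single NAM/PN library, that of pool 2, had 12.1 CPM while the other 3 had between 0.558 and 1.97 CPM. mt-Tt (threonine) and mt-Tp (proline) stayed at or below 6.52 and 2.98 CPM. Of the 6, 5 had positive differences and 1 a negative one, but only mt-Ti kept its direction in all 21 alternatives. Without pool 2, mt-Tl1 differed by -0.48, mt-Tq by -0.30 and mt-Tm by -0.20, and mt-Tt differed by -1.77 with the replicate block. Of the 6 tRNAs, 0 passed the test, with edgeR adjusted p-values from 0.894 to 0.994, 0 at an unadjusted p of 0.05 and 0 by DESeq2 or voomWithQualityWeights.

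Levels of different genes were set side by side per length of transcript. A 3′ kit reads mainly 1 end of an RNA, so this division lowers long genes relative to short ones, and the order depends on the scale: mt-Rnr1 lies above mt-Cytb per kilobase and below it in CPM. On the scale of mean CPM per kilobase of transcript over all 8 libraries, mt-Rnr2 had 10405, mt-Nd4 8348, mt-Nd1 6405, mt-Rnr1 5004, mt-Cytb 4534 and mt-Nd2 3766. Well below these came mt-Nd5 with 361 and mt-Co1 with 305, and mt-Nd6 had 64.7. The value of mt-Co1 cannot be read as its RNA level, since its last 483 bases are nearly identical to Gm29216 and the treatment of reads shared with such copies is not given. Per kilobase, the 6 tested tRNAs lay between 25.7 and 132.

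The summed share of the rRNAs, most of which is mt-Rnr2, was lower with NAM/PN, and that of the mRNAs overlapped. All 37 genes together held 7.30%, 4.73%, 3.73% and 7.54% of the counts with vehicle and 4.07%, 4.55%, 4.74% and 2.56% with NAM/PN. This total overlapped as well, was lower in 3 of 4 pools and higher in pool 3, and its difference in means of -1.84 percentage points ranged from -2.54 to -1.27 when single libraries were left out. The rRNAs held 3.01%, 2.06%, 2.38% and 3.58% of all counts in the vehicle libraries of pools 1 to 4 and 1.65%, 1.72%, 1.70% and 0.747% in the NAM/PN libraries. The groups did not overlap, with means of 2.76% ± 0.674 (SD, n = 4) and 1.45% ± 0.472 (SD, n = 4), and the share was lower in all 4 pools. The mRNAs held 4.29%, 2.67%, 1.35% and 3.96% with vehicle and 2.42%, 2.82%, 3.04% and 1.82% with NAM/PN. These groups overlapped, with the lowest share in a vehicle library, and their means of 3.07% ± 1.34 and 2.52% ± 0.537 (SD, n = 4 each) differed by less than the vehicle SD. Their difference of -0.544 percentage points was -0.136 without the vehicle library of pool 1, -0.247 without that of pool 4, -0.308 without the NAM/PN library of pool 4 and -1.12 without the vehicle library of pool 3. No test was made on these sums.

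**Figure D3:**
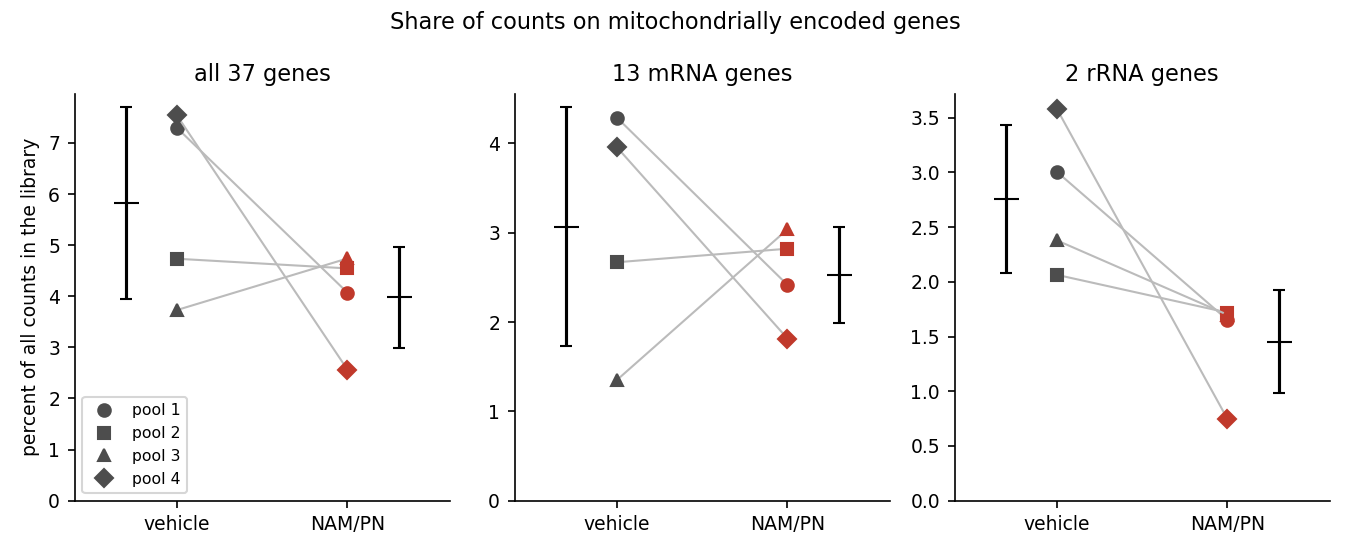
Percent of all counts in a library on the 37 mitochondrially encoded genes, on the 13 mRNA genes and on the 2 rRNA genes, each with its own vertical axis from 0, with lines joining the vehicle and NAM/PN libraries of a pool and bars giving the mean and SD of 4 libraries. The rRNA share was lower with NAM/PN in all 4 pools (means of 2.76% and 1.45%), whereas the mRNA share was lower in pools 1 and 4 and higher in pools 2 and 3.

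The next shares and ratios, like the mRNA share above, have no counts from the 6 mRNAs at 0, and so compare libraries without giving the makeup of mitochondrial RNA in the cells. Within the mitochondrial counts, rRNA made up 41.2%, 43.6%, 63.8% and 47.5% with vehicle and 40.6%, 37.8%, 35.8% and 29.1% with NAM/PN. The groups were separate, but pool 1 differed by only 0.602 percentage points. The tRNAs made up 0.0413%, 0.0408%, 0.0308% and 0.0463% of the mitochondrial counts with vehicle and 0.0696%, 0.137%, 0.0756% and 0.0626% with NAM/PN. This share was higher in all 4 pools without overlap, on sparse counts and over a total that holds the lower mt-Rnr2. Per mitochondrial mRNA count, mt-Rnr2 had 0.557, 0.609, 1.47 and 0.688 counts with vehicle and 0.510, 0.450, 0.411 and 0.315 counts with NAM/PN. The vehicle library of pool 3 stood far above the rest in this ratio and also held the lowest mRNA share. mt-Rnr1 per mRNA count ranged from 0.144 to 0.295 with vehicle and from 0.0960 to 0.174 with NAM/PN, and the groups overlapped. mt-Rnr2 counts per mt-Rnr1 count ranged from 3.17 to 4.97 with vehicle and from 2.78 to 3.28 with NAM/PN, with the NAM/PN library of pool 4 above the vehicle library of its own pool. These ratios are descriptions without a test.

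**Figure D4:**
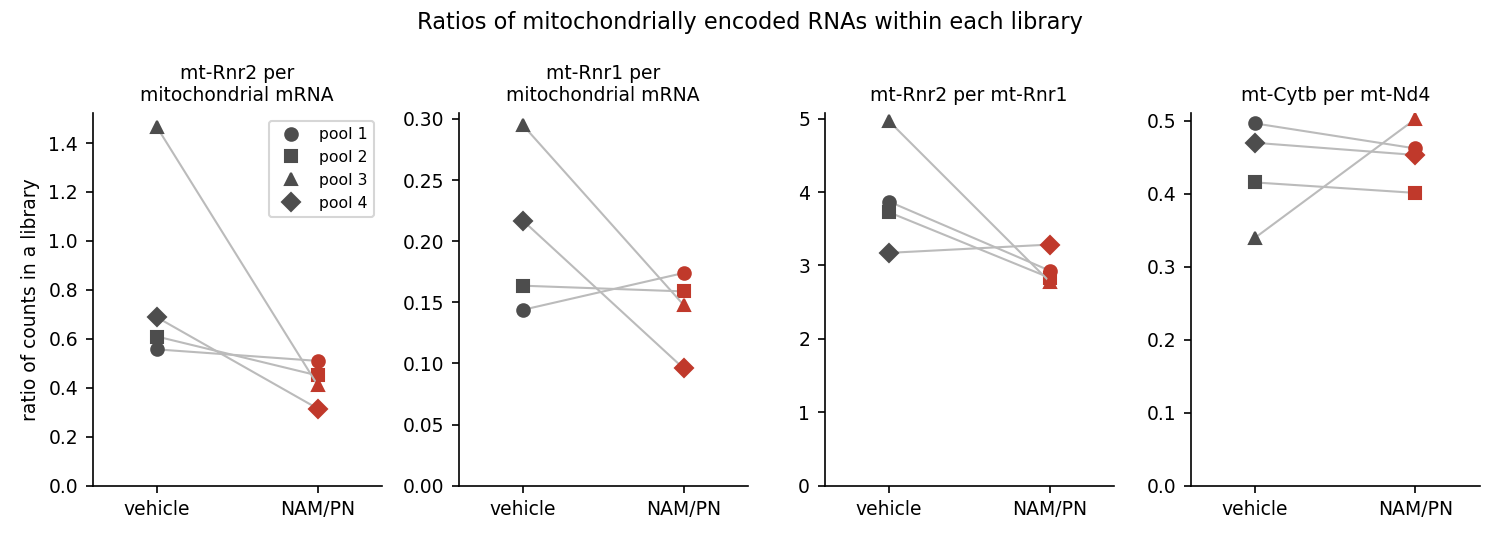
Ratios of counts within each library (vertical axes from 0) for mt-Rnr2 and mt-Rnr1 per mitochondrial mRNA count, mt-Rnr2 per mt-Rnr1 and mt-Cytb per mt-Nd4, with lines joining the vehicle and NAM/PN libraries of a pool. mt-Rnr2 per mRNA count was lower with NAM/PN in every pool, from 0.557 to 1.47 with vehicle against 0.315 to 0.510, while the other ratios overlapped.

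The makeup of the mRNA counts, which come from 7 of the 13 mRNA genes, overlapped between the treatments for every gene. Since the other 6, which include the subunits of complex V and most of complex IV, are at 0 in all libraries, these percentages describe the counted genes and not the mitochondrial mRNA of the cells. mt-Nd4 made up 41.2% ± 3.90 of the mitochondrial mRNA counts with vehicle and 43.0% ± 2.27 with NAM/PN (SD, n = 4 each). mt-Nd1 made up 22.0% ± 1.67 and 21.6% ± 1.595, and mt-Cytb 17.6% ± 1.62 and 19.5% ± 1.25. mt-Nd2 made up 14.9% ± 2.22 and 11.9% ± 3.72, with 6.44% in the NAM/PN library of pool 4 and 12.9% to 14.3% in the other 3. The mRNAs of complex I together held 80.6% ± 1.44 and 78.9% ± 1.39 of the mRNA counts. mt-Cytb per mt-Nd4 count, 2 mRNAs far apart on the same strand, was 0.430 ± 0.0692 with vehicle and 0.454 ± 0.0416 with NAM/PN.

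Some features of the libraries differed within or between the treatments. The vehicle library of pool 3 had 18.7% of its counts on CT010467.1, a nuclear rRNA gene, against 9.09% to 9.59% in the other vehicle libraries, and the NAM/PN library of pool 4, the one with the least mt-Rnr2, had 5.22% against 10.2% to 11.6% in the other NAM/PN libraries. mt-Rnr2 counts per CT010467.1 count were 0.263, 0.176, 0.106 and 0.284 with vehicle and 0.106, 0.123, 0.123 and 0.110 with NAM/PN, so that on this scale the vehicle library of pool 3 lay at the NAM/PN values. The nuclear non-coding RNAs Malat1 (2885 to 3769 against 766 to 2536 CPM of the library total) and Neat1 (249 to 372 against 135 to 224 CPM) were also lower with NAM/PN without overlap. Groups of TMM-normalised CPM did not overlap in this direction for 4.42% of all tested genes. The part of these features in the difference of mt-Rnr2 was not tested. Without the vehicle library of pool 3 and the NAM/PN library of pool 4, mt-Rnr2 differed by -0.87 (edgeR adjusted p of 0.000568) and was the only mitochondrially encoded gene called, and 236 genes were called in all, in place of 154.

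The state of the cells differed between the treatments as well. Of 28 tested genes of myogenic differentiation, 17 fell and none rose, where 0.995% of all tested genes were called lower and 0.282% higher. The list was chosen with earlier results of these data known. Of its genes, 28 of 28 had negative differences, and their median was -2.18 on the log2 scale. Myog, the transcription factor of differentiating myoblasts, fell by 2.22 (edgeR adjusted p of 0.000232), and Mymk, which fuses myoblasts, fell by 2.60 (edgeR adjusted p of 0.000974). The summed CPM of 10 MuSC markers was 2992 to 3451 with vehicle and 2386 to 2984 with NAM/PN, and 0 of its 9 tested genes were called by edgeR (1 at an unadjusted p of 0.05, 0 by DESeq2 and 1 by voomWithQualityWeights). Pax7, the defining factor of MuSCs, ranged from 166 to 246 CPM and from 97.0 to 199 CPM. The sum of the 9 endothelial markers was 3.45 to 19.3 against 9.81 to 29.4 CPM, with 5 at 0 (Emcn, Flt1, Cldn5, Tie1 and Ptprb). The sum of the 9 immune markers was 0.976 to 7.55 against 3.49 to 7.11 CPM, with 8 at 0, Cd68 being the exception. The sum of the 10 fibro-adipogenic markers was 339 to 460 against 137 to 1198 CPM with Pdgfra, Lum, Dpt and Mfap5 at 0, and Gsn and Col3a1 fell. Col1a1, the collagen of the same list that makes the highest sum, had 4.25, 1.73, 41.1 and 1.73 CPM with vehicle and 484, 1028, 3.94 and 3.26 CPM with NAM/PN, and did not pass the test (edgeR adjusted p of 0.0709). The sum of the 8 mural markers was 284 to 608 against 95.6 to 155 CPM with Myh11 at 0, and Acta2, an actin that myoblasts also express, fell. Ncam1, an adhesion molecule of myoblasts that glia share, averaged 1144 CPM (SD 134) in vehicle libraries against 490 CPM (SD 46.2) after treatment, and fell by 1.22 on the log2 scale (edgeR adjusted p of 0.000147). The part of differentiation state or cell makeup in the difference of mt-Rnr2 was not tested.

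Nuclear genes that make and process mitochondrial RNA gave 0 calls with edgeR. Of 11 tested transcription genes, 24 genes of RNA processing, polyadenylation and decay and 22 genes of tRNA and rRNA modification, 1 in each list had an unadjusted p under 0.05, and DESeq2 and voomWithQualityWeights called 0. Their median differences were 0.28, 0.085 and 0.12 on the log2 scale, each of which changed sign when single libraries were left out. Polrmt, the mitochondrial RNA polymerase, had 31.4, 33.5, 13.7 and 29.4 CPM with vehicle and 29.9, 55.5, 30.04 and 24.3 CPM with NAM/PN. Its difference was 0.37 (SE 0.35, edgeR adjusted p of 0.878). Tfam, which packages the mitochondrial genome and starts transcription, differed by 0.28 (SE 0.24), Tfb2m by -0.042 (SE 1.37) and the elongation factor Tefm by -0.092 (SE 0.72). Mrpl12, a protein of the large ribosomal subunit that also binds Polrmt, had the smallest p-value of the transcription genes, with 292 to 307 CPM with vehicle and 284 to 531 CPM with NAM/PN (0.44, SE 0.18, edgeR adjusted p of 0.394).

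Lrpprc and Slirp, which bind and protect mitochondrial mRNAs, differed by 0.11 (SE 0.16) and 0.082 (SE 0.22). The RNA granule protein Grsf1 differed by 0.56 (SE 0.26, edgeR adjusted p of 0.496), the smallest p-value of its list. Cdk5rap1, which modifies mitochondrial tRNAs, had 18.9, 18.0, 24.98 and 24.7 CPM with vehicle and 6.38, 14.02, 8.34 and 6.23 CPM with NAM/PN. These groups did not overlap, as was found in this direction for 4.42% of all tested genes. The difference of -1.31 (SE 0.45) did not pass the test (edgeR adjusted p of 0.241).

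Genes tied to mitochondrial number gave 0 calls with edgeR as well, with 1 gene at an unadjusted p under 0.05 in each of the 3 lists. DESeq2 called 1, the nuclear receptor Esrrb, which edgeR's filter had removed (0 CPM in the 4 vehicle libraries and 3.80, 2.78, 0 and 9.12 CPM with NAM/PN), and voomWithQualityWeights called 0. Of the 19 tested genes of mitochondrial DNA maintenance the median was 0.086, of the 16 tested regulators of biogenesis 0.074, and of the 30 tested genes of mitochondrial mass and import 0.027. The DNA polymerase Polg differed by -0.094 (SE 0.27) and the helicase Twnk by -0.46 (SE 0.41). Ppargc1a, a coactivator that drives biogenesis, had 16.8, 18.7, 23.3 and 18.6 CPM with vehicle and 17.0, 6.52, 20.5 and 2.42 CPM with NAM/PN, a difference of -0.74 (SE 0.54, edgeR adjusted p of 0.800). Esrra differed by -0.79 (SE 0.37, edgeR adjusted p of 0.521), Nrf1 by 0.014 (SE 0.24) and Gabpa by -0.17 (SE 0.33). Of the 18 tested genes of the mitochondrial stress response the median was 0.039, with 0 called by edgeR, 5 at an unadjusted p under 0.05, 1 called by DESeq2 (Psat1) and 0 by voomWithQualityWeights. At that unadjusted threshold, 5.32% of all tested genes were lower with edgeR and 3.96% were higher. The serine synthesis enzyme Psat1 came closest to a call, with 102 to 164 CPM with vehicle and 197 to 280 CPM with NAM/PN (0.73, SE 0.19, edgeR adjusted p of 0.0736). Groups that did not overlap were found in this direction for 2.79% of all tested genes.

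The nuclear partners of the mitochondrially encoded subunits gave 0 calls with edgeR among 76 tested genes of complexes I, III, IV and V, with 1 gene, Cox8b, at an unadjusted p under 0.05 and called by DESeq2 and voomWithQualityWeights. Of these, 27 had positive and 49 negative differences, and the median was -0.069 on the log2 scale, where the 7 mitochondrial mRNAs had -0.39. By complex the medians were -0.089 for 36 genes of complex I, 0.045 for 9 of complex III, -0.11 for 14 of complex IV and 0.014 for 17 of complex V. The gap between nuclear and mitochondrial subunits was not tested, and each of the mitochondrial mRNAs was higher in 2 pools and lower in 2. Complex II, which has no mitochondrially encoded subunit, had 4 genes with a median of -0.031. Sdhd, its membrane anchor, had 89.8 to 163 CPM with vehicle and 167 to 198 CPM with NAM/PN. These groups did not overlap, as was found in this direction for 2.79% of all tested genes. Sdhd did not pass the test (0.53, SE 0.20, edgeR adjusted p of 0.332). Cox8b, a muscle form of a complex IV subunit, had 4.01 to 6.07 CPM with vehicle and 0 CPM in all 4 NAM/PN libraries, and did not pass the test either (edgeR adjusted p of 0.0736, and 0.261 with the replicate block).

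**Figure D5:**
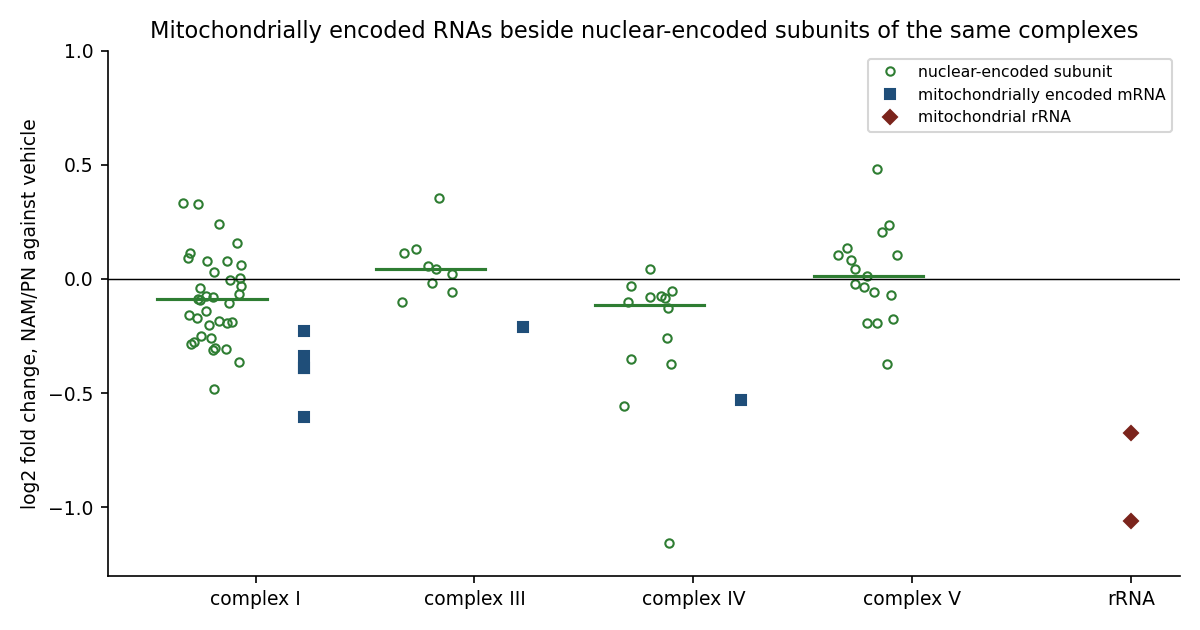
Log2 fold change of NAM/PN against vehicle for nuclear-encoded subunits of complexes I, III, IV and V (open circles, with lines at the list medians, scattered sideways for visibility), for mitochondrially encoded mRNAs of the same complexes (squares) and for the 2 mitochondrial rRNAs (diamonds), from 4 libraries per treatment. Medians of the nuclear subunits lie between -0.11 and 0.045, the mRNAs between -0.60 and -0.21, and the rRNAs at -0.68 and -1.06. Cox8b, at 0 in all NAM/PN libraries, is not drawn.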

How the data were processed

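RNA of 8 libraries was prepared with a QuantSeq 3′ kit. Raw read counts for each gene were deposited by the authors, obtained with RNASTAR on GRCm38 and htseq-count (HTSeq 2.16.2 per the submitters' processing notes); counts were used as deposited and not divided by length. The strand setting and the handling of reads with several alignments are not given in the sources used here, and genes that overlap, such as mt-Atp8 with mt-Atp6 and mt-Nd4l with mt-Nd4, can lose reads.

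Genes were filtered with filterByExpr (minimum count of 10, minimum total count of 15), normalised by TMM and compared with edgeR 4.0.16 (glmQLFit and glmQLFTest, Benjamini-Hochberg adjustment, threshold 0.05) in R 4.3.3, without a block as the study describes for mouse muscles. The pool served as a replicate block in an alternative fit. The pairing comes from the design, since equal pool numbers name the same mice; deviations of paired libraries from their group means correlated between -0.0332 and 0.0313. Other alternatives were DESeq2 1.42.0, limma 3.58.1 (voomWithQualityWeights with duplicateCorrelation), a robust fit, no filter, other scalings and thresholds, and leaving out libraries and pools. SEs are those of the log2 differences. Transcripts from GENCODE M21 were compared with annotated nuclear transcripts by BLAST 2.17.0 with at least 100 aligned bases, and no other nuclear sequence was searched. In simulated counts for 12060 genes, the test recovered 81 of 200 changed genes (54 of 100 changed 4-fold and 27 of 100 changed 2-fold) and called 4 unchanged ones.

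The genes examined and all lists were chosen with earlier results of these data known. All members, each list's gene with the smallest p-value, up to 6 called genes of a list and a fixed set of regulators were eligible to be named. Sums over members were given no p-value. Malat1, Neat1, Esrrb, Acta2, Ncam1, Gsn, Col1a1, Col3a1, Cd68 and the markers at 0 were named after their values were seen. The result of a further marker list is not reported here.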

Additional observations from a re-analysis of the deposited data

Results flagged for a closer look

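Of 50 groups of 4 libraries examined, 7 held a value far from the other 3 by Dixon's criterion, where chance gives about 1 in 20, or 2.5. The groups are not independent, since the rRNA share is the sum of mt-Rnr1 and mt-Rnr2 and flags on these rest on the same counts. The NAM/PN library of pool 4 had 5413 CPM of mt-Rnr2 against 12269 to 12635 CPM in the other NAM/PN libraries, and 1648 CPM of mt-Rnr1 against 4205 to 4459 CPM. In the same library the mitochondrial rRNA share was 0.747% against 1.65% to 1.72%, and its 100 most abundant genes held 26.2% of the counts against 30.3% to 31.1%. The vehicle library of pool 3 had 18.7% of its counts on the nuclear rRNA gene CT010467.1 against 9.09% to 9.59% in the other vehicle libraries. Among the sparse tRNAs, mt-Tl1 had 12.1 CPM in the NAM/PN library of pool 2 against 0.558 to 1.97 CPM, and mt-Tp had 0 CPM in the vehicle library of pool 3 against 2.35 to 2.60 CPM.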

How the results depend on the processing

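mt-Rnr2 had a negative difference in all 21 alternatives (-1.29 to -0.72 on the log2 scale) and was called in 17, with adjusted p-values from 2.45e-06 to 0.116. It was not called in the robust fit (-1.06, adjusted p of 0.0920), which left 0 mitochondrially encoded genes called (mt-Rnr2 alone had an unadjusted p under 0.05). Without the filter on low counts 3 were called, mt-Rnr1 (-0.69, adjusted p of 0.00943) and mt-Nd2 (-0.62, adjusted p of 0.0330) in addition. When single libraries or pools were left out, between 0 and 1 were called, and mt-Rnr2 differed by -1.29 to -0.72. The number of all genes called was 388 with DESeq2, 366 without the filter, 232 with voomWithQualityWeights, 244 at a threshold of 0.10, 236 without both libraries that stand apart (an alternative added after the data were seen) and 42 to 177 when libraries or pools were left out. The replicate block (pairing by pool) gave 156 calls and changed no call of a mitochondrially encoded gene. When single libraries were left out, list medians ranged from -0.039 to 0.12 for RNA processing, -0.090 to 0.19 for tRNA and rRNA modification, 0.018 to 0.14 for the stress response and -2.52 to -1.99 for myogenic differentiation. Of the 13 lists, 9 had medians of both signs in these fits. Of 517 values compared, 489 counted as kept. For single genes this meant an unchanged call, and the direction could turn where neither fit called the gene. For shares and list medians it meant a move smaller than the replicate spread, and for numbers of called genes a ratio within a set limit. The cause of these shifts was not tested. The tRNAs rest on few counts, and 22 of the 37 genes, 16 of them at 0 in every library, were not tested.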
